A study of Mus musculus with 8 samples.

Results

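The genes described here encode proteins that copy DNA (20 S-phase genes) or that divide the cell after copying (36 mitotic genes of the G2 and M phases). These 56 genes were taken by symbol from a cell cycle list, out of 38406 genes in the count table. They were read in regulatory T cells (Tregs), CD4 T cells that hold back immune responses and depend on the transcription factor Foxp3. The Tregs were sorted from injured limb muscle or from spleen of male C57BL/6 mice aged 2 months (young) or more than 6 months (aged), 4 days after cardiotoxin, a snake venom toxin that kills muscle fibres, was injected at 0.9 µg per muscle. Each of the 4 groups (spleen or muscle, young or aged) had 2 libraries, made from 1500 cells sorted again after a first sort. The spleens came from injured mice too, no uninjured mice are among the samples, and the labels name no transgene or reporter allele. The study describes the pair of libraries as biological duplicates without naming the animals behind them, and a p-value then covers the spread among libraries, which may be technical.

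A cell enters S phase when cyclin D and cyclin E kinases inactivate the retinoblastoma proteins and free the E2F transcription factors, which switch on the genes for origin licensing, nucleotide synthesis and DNA copying. The mitotic genes come on later, under the MuvB complex with B-Myb and FoxM1, and their products condense the chromosomes, build the spindle and split the cell. Most Tregs in lymphoid tissue rest, whereas Tregs are known to accumulate and divide in muscle after injury.

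Promoter letters known from these 2 classes were counted, and 6 promoters are printed to show them. No test of the difference between the classes was run. E2F letters were TTTCCCGC, TTTGGCGC, TTTCGCGC and TTTGGCGG, and TTTGAA stands for the cell cycle homology region (CHR), where MuvB binds. The search for that region also accepted a close variant of the word, which reads TTCGAA. The third search was for the box of the NF-Y factor, CCAAT. All were searched on both strands in the 250 bases before each start in RefSeq's promoter table (GRCm38.p6), and no searched word holds another. Each line below gives the last 100 bases before the start, read 5′ to 3′ on the gene's strand, outside every annotated exon, with counted letters in capitals. Mcm6 shows the S-phase type, and the AA at its left end closes a match that begins before the printed bases. Top2a, Mki67, Hmgb2, Hmmr and Kif23 are mitotic genes that were higher in muscle.
Mcm6, chr1:128359706-128359805, minus strand: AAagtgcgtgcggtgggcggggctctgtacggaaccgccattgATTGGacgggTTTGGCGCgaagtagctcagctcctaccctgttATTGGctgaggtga
Top2a, chr11:99024190-99024289, minus strand: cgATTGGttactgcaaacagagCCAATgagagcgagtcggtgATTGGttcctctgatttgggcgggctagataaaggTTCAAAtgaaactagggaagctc
Mki67, chr7:135716380-135716479, minus strand: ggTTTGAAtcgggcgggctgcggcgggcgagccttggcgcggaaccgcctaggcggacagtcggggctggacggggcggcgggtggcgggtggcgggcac
Hmgb2, chr8:57511743-57511842, plus strand: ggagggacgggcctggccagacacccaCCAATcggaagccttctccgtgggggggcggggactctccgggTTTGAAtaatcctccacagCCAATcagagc
Hmmr, chr11:40733438-40733537, minus strand: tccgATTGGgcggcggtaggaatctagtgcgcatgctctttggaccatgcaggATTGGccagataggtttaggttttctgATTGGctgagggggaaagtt
Kif23, chr9:61946800-61946899, minus strand: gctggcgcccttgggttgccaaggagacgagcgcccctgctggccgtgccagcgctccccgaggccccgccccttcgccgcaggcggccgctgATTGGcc

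Of the 56 genes, 49 had a promoter in that table, and Aurkb, Ccna2, Ccne2, Gins2, Mcm4, Smc4 and Tpx2 had none. E2F letters stood before 6 of 17 S-phase genes (35.3%) and 1 of 32 mitotic genes (3.12%, Cdk1), against 3.84% of all genes tested for expression and 2.26% of all genes in the promoter table. CHR letters together with CCAAT stood before 11 of 32 mitotic genes (34.4%) and 3 of 17 S-phase genes (17.6%), against 5.98% of the genes tested and 7.0% of all. CCAAT alone was common everywhere: 75% of mitotic genes, 64.7% of S-phase genes and 39.9% of the genes tested held it. Among the 10 mitotic genes that were higher in muscle, all of which had a promoter in the table, 4 held both CHR letters and CCAAT (40.0%), namely Top2a, Mki67, Hmgb2 and Cdk1. Kif23 held a single CCAAT, 7 bases before its start, and Hmmr held 5 CCAAT matches and no CHR letters. A match describes the letters and not a bound factor, and binding was not measured in these libraries.

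Depth and cell identity bear on all values. The libraries held 1969982 to 4008622 counts, and a member gene had 21 (Bub1) to 5808 (Smc4) counts over all 8 libraries, with a median of 294. Values are CPM, counts scaled to a common library size by the TMM method. All 8 markers of T cells and Tregs were read in every library, at a summed 3684 to 5034 CPM. Young muscle replicate 1 stood apart: its 15 myeloid markers summed to 907 CPM against 272 to 633 in the other 7 libraries, and its 8 fibroblast and endothelial markers to 553 against 155 to 354. Among them the macrophage gene Lyz2 was at 116 CPM (0.372 to 12.0 elsewhere) and the collagen gene Col1a1 at 150 CPM (1.02 to 15.0 elsewhere). The other marker sums lay between 37.8 and 92.6 CPM for 6 B cell genes, 15.3 and 25.7 for 6 NK and CD8 T cell genes, 7.45 and 155 for 6 erythroid genes, and 28.2 and 135 for 9 muscle and satellite cell genes. The muscle regulator gene Myog was at 0 in all 8 libraries.

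The first comparison asked whether Tregs in injured muscle carried more cell cycle RNA than Tregs of the spleen. Averaged over both ages, 13 of the 53 genes that could be tested were higher in muscle and 1 was lower, by edgeR's quasi-likelihood test at an adjusted p of 0.05. The mitotic genes Kif23, Cdk1, Nuf2, Hmmr, Mki67, Birc5, Cenpa, Top2a, Cdca8 and Hmgb2 and the S-phase genes Rrm2, Tyms and Pcna were higher, and the condensin gene Smc4 was lower. By class, 10 of 34 mitotic genes (29.4%) and 3 of 19 S-phase genes (15.8%) were higher, beside 20.0% of all 14772 genes tested. Lower in muscle were 1 mitotic gene (2.94%) and 0 S-phase genes, beside 17.6% of all genes tested. DESeq2 called 0 S-phase genes lower, beside 2082 of all 14772 genes. At an unadjusted p under 0.05 in edgeR, 3 S-phase genes were higher and 1 lower (Mcm2, -0.53 ± 0.25). Beside them stood 7122 of all 14772 genes, in either direction. In this fit to all 8 libraries the S-phase share of higher calls was below that of all genes, and the mitotic share above it. The mitotic share depended on single libraries: with young spleen replicate 1 left out it was 14.3% (5 of 35) beside 11.4% of all genes, both shares were the same with aged spleen replicate 2 left out, and without aged muscle replicate 2 it was 17.1% (6 of 35) beside 13.3%. Without young muscle replicate 1 it was 20.6% (7 of 34), near the 19.8% of all genes. The S-phase differences moved with single libraries too. Over the 8 omissions the log2 values ran from 0.61 to 0.77 for Pcna, 0.85 to 1.42 for Rrm2 and 0.62 to 1.23 for Tyms.

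**Figure D1:**
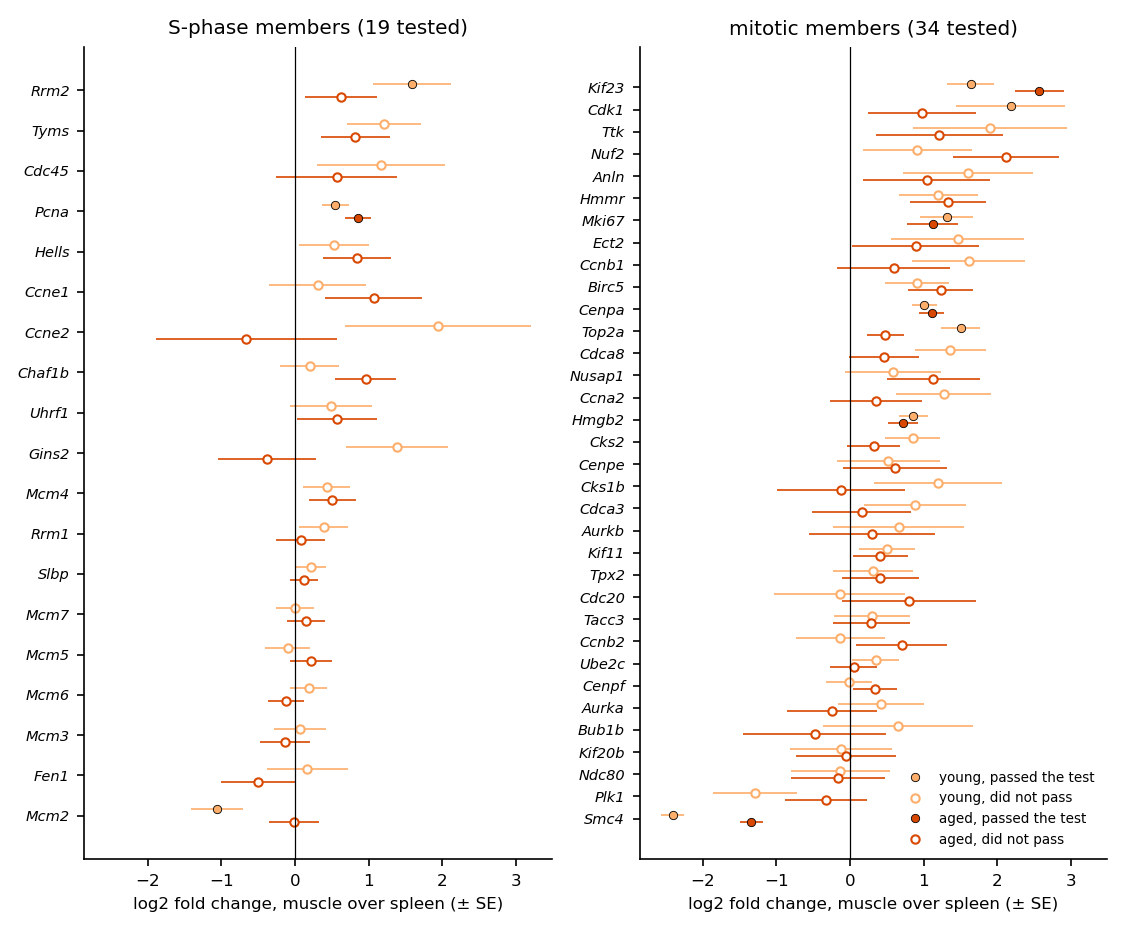
Log2 differences between muscle and spleen (x axis; bars are ± SE) for the 19 S-phase and 34 mitotic genes tested, with young mice in light and aged mice in dark orange and filled points past the threshold. Most points lie right of 0, Kif23 and Cdk1 at the top of the mitotic panel, with Smc4 and Mcm2 at the left of their panels.

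Direction was shared more widely than the calls. The median log2 difference between muscle and spleen was 0.58 over the 34 mitotic genes tested, 30 of which were above 0, and 0.51 over the 19 S-phase genes, 16 of which were above 0, beside a median of 0.05 with 52.2% above 0 over all genes tested. All 4 muscle libraries lay above all 4 spleen libraries in 12 mitotic genes (Cdk1, Top2a, Mki67, Cenpa, Nusap1, Kif23, Hmmr, Nuf2, Cks2, Anln, Ect2 and Hmgb2) and in 1 S-phase gene, Pcna, beside 12.3% of all genes tested. In bulk RNA, more dividing cells and more of each RNA per cell cannot be told apart. With no filter on low counts all 20 S-phase and 36 mitotic genes entered the test, and 3 and 10 were higher and 1 (Mcm2) and 1 were lower. Cdc6, Bub1 and Kif2c, which were too sparse for the filtered test, were read at 1.47 to 8.85, 0 to 2.01 and 0 to 7.24 CPM, each highest in young muscle replicate 1.

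**Figure D2:**
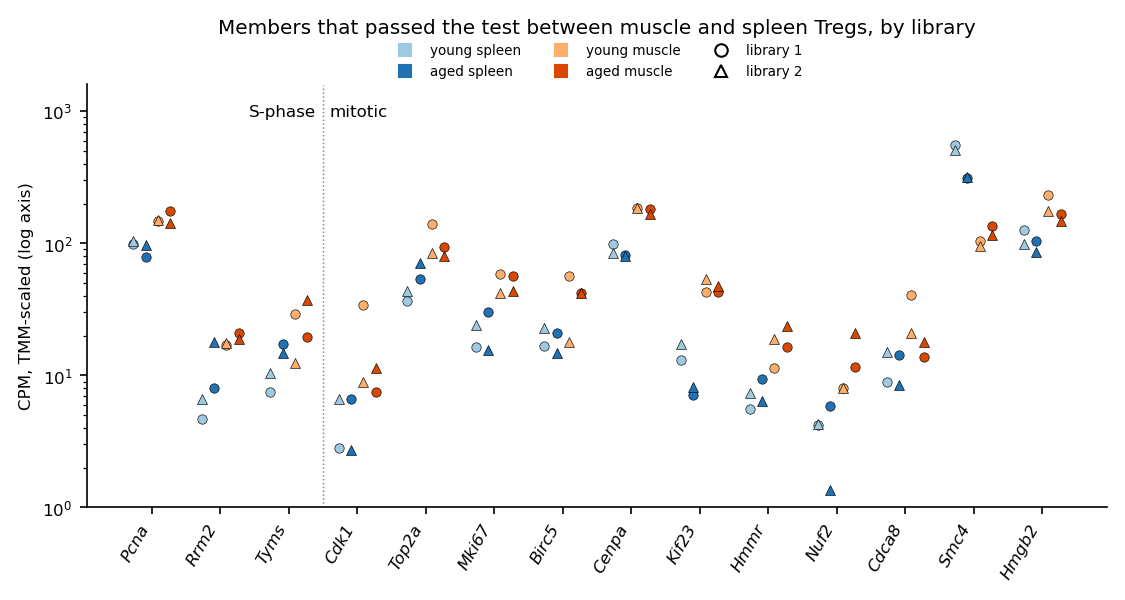
CPM on a log axis in each of the 8 libraries for the 14 genes called between muscle and spleen, with colours for the 4 groups and circles and triangles for libraries 1 and 2. Kif23 and Cenpa show wide gaps between blue spleen and orange muscle points, and Smc4 shows the reverse order.

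Among the S-phase genes, Pcna, the sliding clamp that holds DNA polymerase on its template, had the clearest difference. It was read at 99.1 and 105 CPM in spleen of young and 78.9 and 96.7 of aged mice, and at 147 and 151 in muscle of young and 175 and 143 of aged mice. Every muscle library was above every spleen library, and the log2 difference was 0.71 ± 0.13 (SE; edgeR adjusted p = 0.00075). Per kilobase of exon Pcna was also the most abundant of the 56 genes, at a mean of 51.9 CPM per kb.

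Of the enzymes that make nucleotides, 2 were higher and 1 was not. Rrm2, the regulated subunit of ribonucleotide reductase, was at 4.67 and 6.59 CPM in spleen of young and 8.09 and 18 of aged mice, and at 16.9 and 17.5 in muscle of young and 20.9 and 19 of aged mice (log2 difference 1.11 ± 0.36, SE; edgeR adjusted p = 0.026). The second library of aged spleen reached the level of muscle. Tyms, the thymidylate synthase gene, was at 7.48 and 10.5 CPM in spleen of young and 17.2 and 14.9 of aged mice, and at 29.0 and 12.5 in muscle of young and 19.4 and 37.6 of aged mice (1.01 ± 0.34; edgeR adjusted p = 0.03). Its lowest muscle library, young muscle replicate 2, lay below both aged spleen libraries. Rrm1, which encodes the constant subunit of the same reductase as Rrm2, was at 27.5 to 34.1 CPM in spleen and 26.5 to 53.5 in muscle (0.24 ± 0.23; adjusted p = 0.44). Both calls were lost when single libraries were left out: Rrm2 without 4 of the 8 and Tyms without 6 of them, and over all 8 omissions the log2 differences ran from 0.85 to 1.42 and from 0.62 to 1.23.

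The genes of the MCM helicase, the ring that opens DNA at origins, did not share this pattern. Mcm3, Mcm5, Mcm6 and Mcm7 had log2 differences of -0.03, 0.06, 0.03 and 0.08, and Mcm4 of 0.47, with none past the threshold. Mcm6, whose promoter is printed above, was at 47.7 and 48.8 CPM in spleen of young and 72.8 and 80.1 of aged mice, and at 67.2 and 42.5 in muscle of young and 65.9 and 74.4 of aged mice, so that the tissues overlapped. Mcm2 was the lone S-phase gene with a call below spleen and that in young mice: it was at 64.0 and 59.7 CPM in young spleen and 42.6 and 16 in young muscle (-1.06 ± 0.35; edgeR adjusted p = 0.045), and at 38.2 and 44.1 in aged spleen and 44.7 and 36.8 in aged muscle. That call was lost under 9 of 14 alternatives, and the difference between ages was not past the threshold (adjusted p = 0.39). The helicase partners Cdc45 and Gins2, the chromatin factors Uhrf1, Hells and Chaf1b, the cyclin E genes Ccne1 and Ccne2, the histone mRNA binder Slbp and the flap nuclease Fen1 had log2 differences of -0.16 to 0.87, none past the threshold.

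The mitotic genes begin with the kinase that starts mitosis. Cdk1 was at 2.80 and 6.59 CPM in spleen of young and 6.62 and 2.71 of aged mice, and at 34.2 and 8.99 in muscle of young and 7.45 and 11.4 of aged mice (log2 difference 1.58 ± 0.52, SE; edgeR adjusted p = 0.027). The tissues did not overlap, but young muscle replicate 1 stood far above the other 3 muscle libraries, and without it the difference was 0.92 and not past the threshold. Its partners had smaller or noisier differences: Ccnb1, the main mitotic cyclin, was at 33.4 CPM in that library and 2.71 to 8.94 in the other 7 (1.10 ± 0.55; adjusted p = 0.12), Ccna2 differed by 0.81 ± 0.45 and Ccnb2 by 0.28 ± 0.43. A pseudogene row, Ccnb2-ps, held 200 counts beside the 225 of Ccnb2, and how reads were divided between them was not tested. Mki67, which encodes the proliferation antigen Ki-67 that coats mitotic chromosomes, was more even, at 16.4 and 24 CPM in spleen of young and 30.2 and 15.6 of aged mice, and at 58.7 and 42.0 in muscle of young and 57.0 and 43.6 of aged mice (1.22 ± 0.25; edgeR adjusted p = 0.0017). It was past the threshold at each age in the fit to all 8 libraries, at 1.31 ± 0.36 in young and 1.12 ± 0.35 in aged mice. Leaving out each library in turn gave 1.03 to 1.62 in young and 0.7 to 1.66 in aged mice, so these values depended on single libraries.

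Genes of the centromere and kinetochore, which tie chromosomes to the spindle, differed among themselves. Cenpa, the histone H3 variant that marks centromeres, was at 99.1 and 85.2 CPM in spleen of young and 81.6 and 80.4 of aged mice, and at 187 and 184 in muscle of young and 181 and 168 of aged mice (1.06 ± 0.12; edgeR adjusted p = 1e-05). The 2 tissues were separated by a wide gap and the replicates lay close together, in young and in aged mice. Nuf2, a subunit of the NDC80 complex, was at 4.21 and 4.26 CPM in spleen of young and 5.88 and 1.36 of aged mice, and at 8.05 and 7.99 in muscle of young and 11.5 and 21.1 of aged mice (1.52 ± 0.52; adjusted p = 0.032). Ndc80, its partner in that complex, was at 6.54 to 8.34 CPM in spleen and 5.49 to 8.88 in muscle (-0.14 ± 0.46). Cenpe and Cenpf, a kinetochore motor and a large kinetochore protein, differed by 0.57 ± 0.50 and 0.16 ± 0.21. The checkpoint kinase gene Ttk differed by 1.55 ± 0.68 (adjusted p = 0.083) and the checkpoint gene Bub1b by 0.08 ± 0.69. Birc5 and Cdca8, which encode survivin and borealin of the chromosomal passenger complex, differed by 1.07 ± 0.31 and 0.91 ± 0.34 (adjusted p = 0.016 and 0.045), whereas Aurkb, the kinase of that complex, differed by 0.48 ± 0.62. Without young muscle replicate 1 the Birc5 difference was 0.52 and the Cdca8 difference 0.60, neither past the threshold.

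Spindle and cytokinesis genes held the largest difference. Kif23, a kinesin of the central spindle that is needed to split the cell, was at 13.1 and 17.4 CPM in spleen of young and 7.11 and 8.14 of aged mice, and at 42.6 and 53.5 in muscle of young and 43.2 and 47.8 of aged mice (2.11 ± 0.23; edgeR adjusted p = 8e-06). All 4 muscle libraries lay within 42.6 to 53.5 CPM, and the difference was 1.64 ± 0.32 in young and 2.57 ± 0.33 in aged mice. These values did not differ between ages past the threshold (0.93 ± 0.46; edgeR adjusted p = 0.41). Hmmr, a spindle assembly gene, was at 5.61 to 9.32 CPM in spleen and 11.3 to 23.7 in muscle (1.27 ± 0.37; adjusted p = 0.016), with the muscle low in young replicate 1. Other genes of cytokinesis, Anln and Ect2, differed by 1.32 ± 0.62 and 1.17 ± 0.62 with adjusted p of 0.10 and 0.15, although no muscle library overlapped spleen in either. The spindle motors and assembly factors Kif11, Kif20b, Tpx2, Nusap1 and Tacc3 differed by -0.09 to 0.86, and the kinase genes Aurka and Plk1 by 0.09 ± 0.42 and -0.81 ± 0.40, all short of the threshold. So were Cks1b (0.54 ± 0.62) and Cks2 (0.58 ± 0.26), adaptors of CDK1, the degradation genes Ube2c (0.20 ± 0.23) and Cdc20 (0.33 ± 0.63), and Cdca3 (0.52 ± 0.48).

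Chromosome structure genes held both the highest counts and the opposite sign. Top2a, the topoisomerase that untangles sister chromatids, was at 36.5 and 43.4 CPM in spleen of young and 54.2 and 70.6 of aged mice, and at 141 and 84.9 in muscle of young and 93.5 and 80.3 of aged mice (0.99 ± 0.18; edgeR adjusted p = 0.00071). It was 1.5 ± 0.26 higher in young muscle and 0.48 ± 0.25 in aged muscle, the latter not past the threshold (adjusted p = 0.18). The tissue difference of Top2a in aged minus that in young mice did not pass either (-1.02 ± 0.36; edgeR adjusted p = 0.19). Hmgb2, a DNA-bending protein abundant in dividing cells, was at 126 and 98.8 CPM in spleen of young and 104 and 86.2 of aged mice, and at 233 and 175 in muscle of young and 166 and 147 of aged mice (0.79 ± 0.14; edgeR adjusted p = 0.0006). Smc4, the core subunit of condensin that packs chromosomes for mitosis, went the other way, at 557 and 508 CPM in spleen of young and 314 and 320 of aged mice, and at 104 and 95.4 in muscle of young and 135 and 115 of aged mice. Its log2 difference was -1.88 ± 0.11 (edgeR adjusted p = 1.4e-08), and every muscle library was below every spleen library, beside 14.6% of all genes tested with that order. Smc2, the direct partner of Smc4 in condensin, was at 16.9 to 24.1 CPM in spleen and 10.5 to 23.3 in muscle (-0.08 ± 0.30). Of the other condensin genes, Ncapg was higher in muscle by 2.28 ± 0.61 with no overlap, and Ncapd2 by 0.89 ± 0.25 with overlap, at 27.1 to 34.9 CPM in spleen and 33.0 to 103 in muscle, its top value in young muscle replicate 1. Ncaph (0.97 ± 0.53) and Ncapg2 (1.09 ± 0.53) did not pass.

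**Figure D3:**
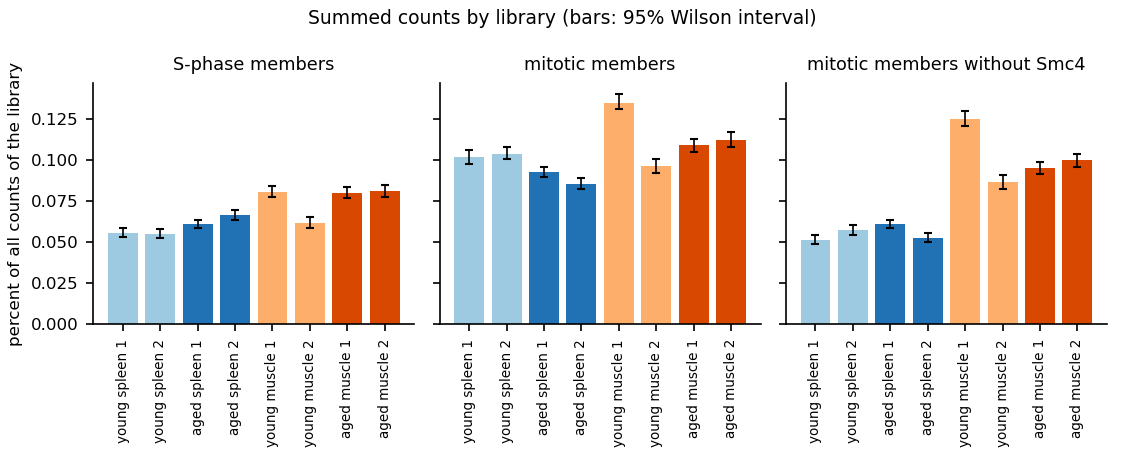
Percent of all counts of each library taken by the 20 S-phase genes, the 36 mitotic genes, and the mitotic genes without Smc4, with 95% Wilson intervals as bars on each column. The tissues overlap in the middle panel and separate in the right one, where spleen lies at 0.0516% to 0.0610% and muscle at 0.0865% to 0.125%.

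Because Smc4 is abundant, it sets the sum of the mitotic class. It made up 34.4% to 49.3% of the mitotic counts of a spleen library and 7.34% to 12.7% of those of a muscle library. Summed over its 36 genes, the mitotic class took 0.102% and 0.104% of all counts in spleen of young and 0.0929% and 0.0856% of aged mice, and 0.135% and 0.0962% in muscle of young and 0.109% and 0.112% of aged mice. The tissues overlapped in that sum, since young muscle replicate 2 lay below both young spleen libraries. Without Smc4, a choice made after its values were seen, the shares, in the same order, were 0.0516% and 0.0574%, 0.0610% and 0.0528%, 0.125% and 0.0865%, and 0.0954% and 0.0999%, and every muscle library lay above every spleen library. The ratio of the muscle mean to the spleen mean was 1.18 with Smc4 and 1.83 without it. The S-phase class took 0.0553% to 0.0664% of counts in spleen and 0.0620% to 0.0810% in muscle, a ratio of 1.27. In TMM-scaled CPM its sums were 600 to 648 in spleen and 610 to 849 in muscle, and the tissues overlapped on either scale. The 95% Wilson interval of each share was narrow (0.0587% to 0.0656% for the lowest muscle value of the S-phase class) but covers counting error only, since amplified reads without molecular identifiers are not independent molecules.

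Single libraries of both tissues bore on the calls. Without young spleen replicate 1, 7 of the 13 higher genes were no longer called (Cdk1, Birc5, Hmmr, Nuf2, Cdca8, Rrm2 and Tyms), and without aged spleen replicate 2, 6 of them (Cdk1, Birc5, Hmmr, Nuf2, Cdca8 and Tyms). Young muscle replicate 1 was the highest of the 8 libraries in 30 of the 53 tested genes (56.6%), against 14.4% of all genes tested, and was above replicate 2 of its group in 46 of 53 and by more than 2-fold in 22. This is also the library with the highest myeloid and fibroblast marker sums given above. Its cyclin D1 gene, Ccnd1, was at 128 CPM against 0.745 to 6.54 in the other 7. The part of these other cells in the cell cycle values was not tested. Without this library 7 mitotic genes were higher and 2 lower, the second being Plk1, and 2 S-phase genes were higher and 1 lower (Mcm2). Without replicate 2 of the same group the counts were 12 and 1 mitotic and 4 and 0 S-phase genes. Pcna, Top2a, Mki67, Cenpa, Kif23, Hmgb2 and Smc4, 7 of the 14 genes called, passed under every alternative run, each left-out library included.

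Within an age, the comparison of tissues used 2 libraries against 2. In young mice 6 mitotic genes were higher and 1 lower in muscle, beside 11.4% and 10.9% of all genes tested, and 2 S-phase genes were higher and 1 lower. In aged mice 4 mitotic genes (Mki67, Cenpa, Kif23 and Hmgb2) and 1 S-phase gene (Pcna) were higher and Smc4 was lower, beside 9.57% and 9.27% of all genes tested. The mitotic shares were 17.6% in young and 11.8% in aged mice, the second close to that of all genes. The median log2 difference of the mitotic genes was 0.86 in young and 0.47 in aged mice, and 0.16 in young mice without young muscle replicate 1. Cenpa, Kif23 and Smc4 were called at both ages under every alternative.

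Age was compared within each tissue. In muscle 0 of 53 genes rose or fell with age by edgeR, beside 1.14% and 0.88% of all genes tested. DESeq2 also called 0, beside 220 higher and 241 lower of 14772 genes. Aurka alone had an unadjusted p under 0.05 in edgeR, beside 2258 of those 14772 genes. The median log2 difference between aged and young muscle was 0.16 for S-phase and -0.19 for mitotic genes, beside 0.03 for all genes. Both medians turned with 1 library: without young muscle replicate 1 they were 0.50 and 0.38, and without young muscle replicate 2 they were -0.25 and -0.71. Mki67 was at 58.7 and 42.0 CPM in young and 57.0 and 43.6 in aged muscle. Aurka, the kinase of the spindle poles, was at 28.6 and 8.99 in young and 7.08 and 5.07 in aged muscle (-1.63 ± 0.61; adjusted p = 0.21). Without young muscle replicate 1 that difference was -0.56. Without young muscle replicate 2 the fit leaves 1 young muscle library, and its calls with age, Aurka and Cks1b, were not read as changes.

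**Figure D4:**
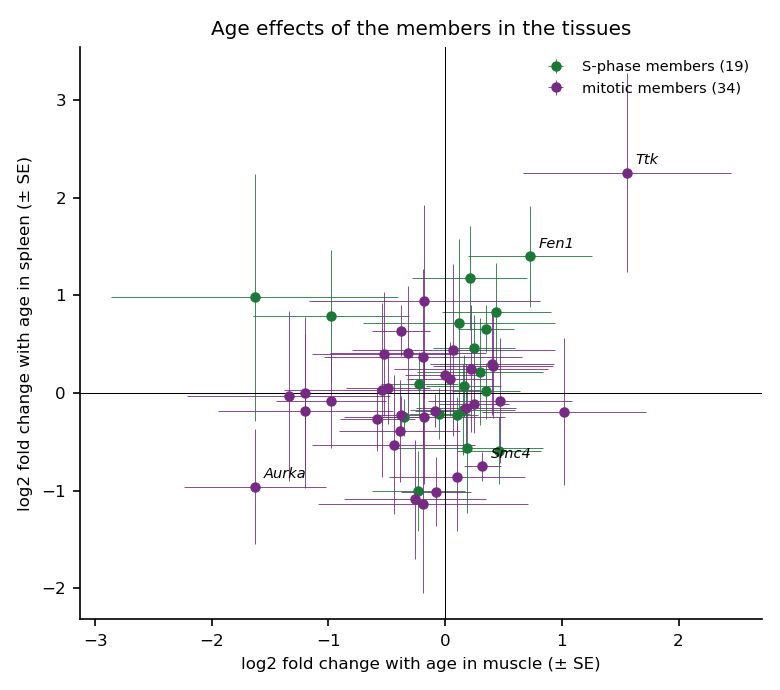
Log2 difference between aged and young mice in muscle (x axis) and in spleen (y axis), ± SE, for the 19 S-phase and 34 mitotic genes tested. Points scatter around 0 on both axes with wide bars, and Smc4, at 0.32 and -0.75, is the single gene past the threshold in spleen.

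In spleen 1 of 53 genes passed, beside 2.08% higher and 2.17% lower among all genes tested: Smc4 fell with age by 0.75 ± 0.15 (edgeR adjusted p = 0.01), from 557 and 508 to 314 and 320 CPM. Muscle did not show that fall, with 104 and 95.4 CPM in young and 135 and 115 in aged mice (0.32 ± 0.16; adjusted p = 0.36). The difference between the age effects was itself tested and was 1.07 ± 0.22 (adjusted p = 0.015), the single member past the threshold beside 1.35% higher and 1.17% lower of all genes tested. The same 4 groups give the tissue difference of Smc4 as -2.41 in young and -1.34 in aged mice, so these values share their libraries. Without any 1 of the 4 spleen libraries, neither the fall nor the difference of age effects passed, at log2 values of -0.80 to -0.68 and 0.98 to 1.11. The other genes of smallest p in spleen did not pass: Mcm6 differed by 0.66 ± 0.24, Fen1 by 1.40 ± 0.52, Chaf1b by -1.0 ± 0.41, Kif23 by -1.01 ± 0.35 and Top2a by 0.64 ± 0.26. With a fit to the 4 spleen libraries alone, Mcm6 and Fen1 rose (adjusted p = 0.026 and 0.025). Fen1 shares exon bases with Tmem258, as 11 of the 56 genes do with some other gene, and the strand setting of the counting is not given in the sources used here, so its reads cannot be assigned with certainty.

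Cell cycle genes outside the 56 were read from lists of the same kind. Of 41 tested replication genes, 4 were higher in muscle (Wdr76, Brip1 and Orc1 among them) and 3 lower (Rpa2, Pold1 and Msh6), 9.76% and 7.32% beside 20.0% and 17.6% of all genes tested, with a median log2 difference of 0.19. Of 48 tested mitotic genes, 9 were higher (Ckap2l, Cdc25b, Prc1, Pttg1, Ncapd2, Ncapg, Lbr, Depdc1a and Cenpw) and 2 lower (Hjurp and Tmpo), 18.8% and 4.17%, with a median of 0.55. The share of higher calls in the second list was thus near that of all genes, and in the first list below it. Prc1, which bundles the central spindle that Kif23 also serves, was at 10.5 to 18.7 CPM in spleen and 20.9 to 37.0 in muscle (1.01 ± 0.27; edgeR adjusted p = 0.0099). Hjurp, the chaperone that loads CENP-A at centromeres, was at 88.6 to 105 CPM in spleen and 42.5 to 55.9 in muscle (-1.02 ± 0.15; edgeR adjusted p = 0.00011), in the reverse order to Cenpa. Cdc25b, a phosphatase that activates CDK1, fell with age in muscle from 181 and 152 to 80.1 and 74.8 CPM (-1.10 ± 0.21; edgeR adjusted p = 0.01).

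Regulators of entry into S phase were read next. The CDK inhibitor genes Cdkn1a (p21), Cdkn2a, Cdkn2d and Cdkn2c, 4 of 5 tested, were higher in muscle, and Cdkn1b was not (0.11 ± 0.12). That is 80.0%, beside 20.0% of all genes tested. In young mice 4 of the 5 were higher, beside 11.4% of all genes tested, and in aged mice 2 were, beside 9.57%. Cdkn1a was at 5.61 and 7.75 CPM in spleen of young and 15.7 and 13.9 of aged mice, and at 283 and 236 in muscle of young and 275 and 197 of aged mice, a log2 difference of 4.62 ± 0.18 (edgeR adjusted p = 1.4e-10). No library of muscle came near one of spleen. Cdkn2d, which encodes p19INK4d, was at 36.8 to 74.3 CPM in spleen and 89.2 to 138 in muscle (1.03 ± 0.14). Cdkn2a was at 43.9 CPM in young muscle replicate 1 and 8.99 to 16.1 in the other 3 muscle libraries (2.09 ± 0.52; edgeR adjusted p = 0.0063). Cdkn1c and Cdkn2b, at 2.41 CPM or less in every library, were not tested.

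**Figure D5:**
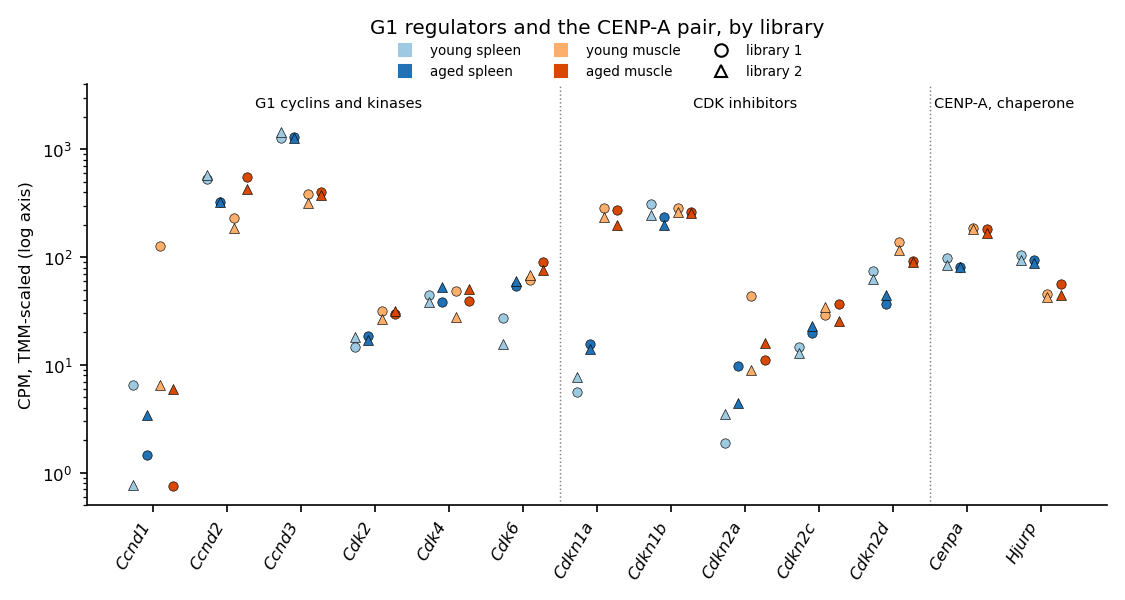
CPM on a log axis in each of the 8 libraries for cyclin D genes, their kinases and Cdk2, the CDK inhibitors, and Cenpa beside its chaperone Hjurp. Cdkn1a is higher in all muscle libraries, Ccnd3 lower, and Ccnd1 stands at 128 CPM in 1 young muscle library.

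Of the cyclin D genes, whose kinases start the path to S phase, Ccnd3 was lower in muscle at 315 to 400 CPM against 1277 to 1443 in spleen (-1.84 ± 0.11; edgeR adjusted p = 1.1e-08). Ccnd2 was at 527 and 584 CPM in spleen of young and 323 and 323 of aged mice, and at 233 and 186 in muscle of young and 552 and 429 of aged mice. It rose with age in muscle by 1.23 ± 0.17 and fell with age in spleen by 0.78 ± 0.17 (edgeR adjusted p = 0.001 and 0.014), and the difference of these effects was 2.01 ± 0.24 (adjusted p = 0.0002). Ccnd2 was thus lower in muscle than in spleen in young mice (-1.41) and higher in aged mice (0.60). The cyclin D partner Cdk6 was higher in muscle by 1.08 ± 0.19 and rose with age in spleen by 1.43 ± 0.28, whereas Cdk4 did not pass in any comparison. Cdk2, the partner of cyclin E and cyclin A, was higher in muscle by 0.81 ± 0.24.

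Of 11 genes linked to resting cells, 6 were lower in muscle (Pik3ip1, Btg1, Txnip, Foxo3, Klf2 and Foxo1; 54.5% beside 17.6% of all genes tested) and 3 higher (Klf4, Tob1 and Btg2; 27.3% beside 20.0%). The median log2 difference of these 11 was -0.51, at -0.37 in young mice with 5 lower and -0.03 in aged mice with 4 lower. Pik3ip1, an inhibitor of PI3 kinase, was at 96.4 to 196 CPM in spleen and 24.1 to 34.0 in muscle (-2.26 ± 0.14; edgeR adjusted p = 2.1e-08). Klf2, a quiescence and homing factor of T cells, fell with age in spleen from 647 and 628 to 281 and 232 CPM (-1.31 ± 0.16; adjusted p = 0.0002), and was at 292, 238, 260 and 256 CPM in the muscle libraries, young ones first. Of 18 retinoblastoma, E2F and MuvB genes, 2 were higher in muscle, Rbl2 by 0.69 ± 0.15 and Lin54 by 0.67 ± 0.24. That is 11.1%, beside 20.0% of all genes tested. By edgeR or DESeq2 0 were lower, beside 17.6% of all genes tested by edgeR. At an unadjusted p under 0.05 in edgeR, 2 were higher and 1 lower, beside 7122 of all 14772 genes in either direction. The median log2 difference of the 18 was -0.1, with 6 of them above 0.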

How the data were processed

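The values are raw read counts for 38406 genes in 8 libraries, as the authors deposited them. The aligner, counter and build listed in the submitters' processing notes include TopHat2 and TopHat, Picard, SAMtools 0.1.19, HTSeq and mm10, without order or settings. Per the labels' protocols the RNA went through in vitro transcription and PCR, and no molecular identifiers are described, so reads and not molecules were counted. Every row named a gene and every column was used.

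Genes were kept by edgeR's filterByExpr (14772), scaled by TMM and tested in R 4.3.3 with edgeR 4.0.16: 1 robust quasi-likelihood fit to all 8 libraries, a coefficient per group and 4 residual degrees of freedom. Tests were two-sided with Benjamini-Hochberg adjustment over all genes tested at 0.05. Every adjusted p in the text is edgeR's unless DESeq2 1.42.0 is named, and an SE is the log2 difference divided by the square root of F. Alternatives were DESeq2, other scalings, no filter on low counts, only the groups compared, a replicate block and each library left out. Exon lengths come from GENCODE M21 (GRCm38, the assembly behind mm10) and promoters from RefSeq (GRCm38.p6).

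The 56 genes and the other lists were chosen with earlier results of these data known. For values in every library a rule took, in S-phase and mitotic genes apart, the 6 genes of smallest p between tissues. It also took the 3 of smallest p in each age comparison, the 2 of highest CPM per kb and Mki67, Top2a, Pcna, Mcm2 and Cdk1. The text gives these values for a part of the genes taken, and for Nuf2 outside the rule. Hells, Mcm4, Slbp, Gins2, Fen1, Chaf1b, Ccne2 and Cdca8 have a difference or a range only, and Aurka has the values of muscle only. From each other list the rule took the 4 genes of smallest p per comparison and the cyclin D and CDK inhibitor genes, and the text gives a part of these. Ndc80, Rrm1, Ccnb1, Anln, Ect2, Prc1 and the condensin genes Smc2, Ncapd2, Ncapg, Ncaph and Ncapg2 were named for their role, after values were seen.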

Additional observations from a re-analysis of the deposited data

Results flagged for a closer look

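Of 46 sets of 4 libraries of a tissue checked for a library far from the others, 4 had a gap above 0.829 of the set's range. About 1 in 20 sets drawn from a single normal population would exceed that cutoff. Each set here pools young and aged libraries, so that rate need not hold, and the flags are descriptive. In muscle the S-phase share of counts had a gap of 0.964, with young muscle replicate 2 at 0.0620% below the 0.0803% to 0.0810% of the other 3. Cdk1 and Aurka had gaps of 0.852 and 0.833, both with young muscle replicate 1 on top, at 34.2 and 28.6 CPM. In spleen Gins2, a helicase partner gene, had a gap of 0.936, with young spleen replicate 1 at 1.87 CPM against 11.2 to 11.9 in the other 3.

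The test of the difference itself in edgeR asked whether the age effect differed between tissues. Of all 14772 genes tested, 1.35% passed with a higher and 1.17% with a lower age effect in muscle. Of 8 Treg and T cell markers 1 was higher and 1 lower, and of 12 myeloid markers tested 2 were lower. Outside the cell type markers, 3 genes of the lists read here passed. The difference, muscle minus spleen on the log2 scale, was 1.07 for Smc4, 2.01 for Ccnd2 and 1.27 for Klf2. Klf2 fell with age in spleen and was at 238 to 292 CPM in the muscle libraries of both ages.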

How the results depend on the processing

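Scaling and tool moved few results. Muscle against spleen over both ages gave 3 higher S-phase genes and 10 higher mitotic genes (9 by DESeq2), with 1 lower S-phase gene with no filter on low counts. In young mice the 2 higher S-phase genes became 1 with DESeq2, with no filter and with only the groups compared, and the 1 lower S-phase gene became 0 with DESeq2, library-size scaling, RLE size factors and only the groups compared. In spleen, age gave 2 higher S-phase genes in a fit of only the groups compared. The ratio of mitotic shares was 1.83 without Smc4, an alternative chosen after seeing the data. Library-size scaling moved the median of all genes by 0.17 for age in spleen, 0.12 for age in muscle and 0.11 for tissue in young mice. It raised the share of higher calls over all genes from 49% to 67.4% for age in spleen and from 56.4% to 66.4% for age in muscle.

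Leaving out each library in turn gave, over both ages, 1 to 4 higher and 0 to 1 lower S-phase genes and 5 to 12 higher and 1 to 2 lower mitotic genes. In young mice the ranges were 0 to 2 and 0 to 1 S-phase genes and 3 to 10 and 1 to 2 mitotic genes. In aged mice they were 0 to 1 and 0 S-phase genes and 2 to 6 and 1 mitotic genes. Age in muscle gave 0 to 2 lower mitotic genes, age in spleen 0 to 1 lower mitotic genes, and the difference of age effects 0 to 1 higher S-phase, 0 to 1 higher mitotic and 0 to 1 lower mitotic genes. The ratio of shares was 1.24 to 1.35 for S-phase and 1.10 to 1.24 for mitotic genes. These ranges are of percent of all counts and do not cover other scalings. Where a group is left with 1 library, that library is assumed to vary like the others.

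The titles number the libraries of each group but do not say that numbers pair them. Deviations of same-numbered libraries correlated at -0.0652 to 0.256, above 0.1 in 2 of 6 pairs of groups. The highest value joined young and aged muscle, which cannot share an animal. Muscle and spleen of the same age gave 0.108 in young and -0.0652 in aged mice. With 2 libraries a group these values cannot decide pairing, and pairing by number was not assumed. With the replicate number as a block, 5 mitotic genes were higher in young mice in place of 6, 6 in aged mice in place of 4, and the other counts of calls were as without it.

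With 2 libraries a group, and 21 to 102 counts in all for the 7 sparsest genes, from Bub1 to Ect2, modest changes of these sparse genes with age were not detectable at this depth. The limit was not theirs alone. Among the denser genes the SE of the age difference in muscle ran from 0.16 for Smc4 (5808 counts) to 0.90 for Cdc20 (145 counts). It was 0.87 for Cks1b (408 counts). A gene not called with age may therefore still have changed.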
